A study of Mus musculus with 15 samples.

Results

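A pair of mouse embryonic stem cell (ESC) lines that lack Hmga1 were compared gene by gene through the effect that each showed against its own wild type. All 15 samples of the series were ESC, and the 11 samples used here were WT a, b and c with Hmga1 KO a and b, and WT_2 a, b and c with full deletion a, b and c. Both tables of counts were joined on the gene identifier, and 13040 of 21662 genes averaged 10 or more counts in each experiment. For each of them the KO effect, the full-deletion effect and the difference of the 2 effects were tested in 1 fit. No WT sample was used for both effects.

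The KO line carries a frameshift made by Cas9 at an exon-intron junction of Hmga1, and the full-deletion line was made with a pair of guides in the 5′ and 3′ untranslated regions. Each genotype was 1 cell line, made in ESC of a mixed 129Sv and C57Bl/6 background, and the edited lines were isolated as single clones. Cells were grown with serum and LIF on feeder cells or gelatine and received no treatment. Replicates were samples of the same line, so the p-values measure the spread between these samples and not between lines. Both experiments shared 1 estimate of this spread, and the KO experiment gave 1 of its 5 residual degrees of freedom. The letters of the KO experiment are batches and entered the fit, whereas those of the full-deletion experiment are only names. A clonal property of 1 line and the loss of Hmga1 therefore cannot be told apart within a line.

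Hmga1 is a small chromatin protein that bends and coats DNA through AT-hooks, short peptides with an Arg-Gly-Arg core that sit in the minor groove of A/T-rich DNA. It is abundant in ESC, embryos and many tumours, and its relative Hmga2 binds DNA in the same manner. Both have been described as architectural factors that can favour or oppose transcription of nearby genes.

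The loss was first checked on Hmga1 itself, which lies at chr17:27693565-27700619 on the + strand of NCBIM37 (mm9). Exon 3, the second coding exon, encodes an AT-hook and ends at the splice donor that is lost in the KO. It is shown with its first 10 intron bases, chr17:27697873-27697966, with the 3 codons of the Arg-Gly-Arg core and the GT of the splice donor in capitals.
Hmga1 exon 3: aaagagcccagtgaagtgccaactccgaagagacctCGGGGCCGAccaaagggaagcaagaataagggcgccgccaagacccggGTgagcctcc
The exon is 84 bases long, so a transcript without it keeps its reading frame, and reads from such transcripts still count towards the gene. Hmga1 reached 428, 254 and 204 CPM (counts scaled to the TMM library size, edgeR's usual unit) in the WT samples a, b and c, against 199.8 and 88.6 CPM in KO a and b. In WT_2 a, b and c it reached 378, 326 and 378 CPM, against 12.9, 11.4 and 12.8 CPM in the 3 full-deletion samples. Each KO sample was below every WT sample, and KO a and b held 46.7% and 34.95% of the WT of the same letter. The full-deletion samples held 3.44% of the WT_2 mean. Hmga1 fell by 1.31 ± 0.15 on the log2 scale in the KO (SE, adjusted p = 0.0137, edgeR quasi-likelihood test, n = 2 and 2). WT c had no KO sample of its letter and did not enter the KO effect. In the full deletion Hmga1 fell by 4.86 ± 0.14 (adjusted p = 7.81e-07, same test, n = 3 and 3). Transcript loss differed between the lines by −3.56 ± 0.20 (adjusted p = 0.000247). This was the only gene called for the difference, 0.00767% of the genes tested, at an adjusted p under 0.01 and a change of at least 2-fold. Processed copies of Hmga1 exist in the genome and multi-mapping reads were placed at random, so the origin of the remaining reads of the full deletion was not tested.

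The 11 libraries held 13465399 to 34952136 counts. WT_2 b stood apart: its TMM factor was 0.717, against 0.926 to 1.12 for the other 10, and 8.78% of its counts fell on its top 10 genes, compared with 4.67% to 5.50% elsewhere. Counts of the main results and lists are also given without it. The samples were ESC by their markers: Pou5f1, the core pluripotency factor, reached 662 to 967 CPM, Sox2 reached 596 to 1196 CPM and Esrrb 489 to 1014 CPM over the 11 samples. In bulk samples fewer cells of a type and less RNA per cell cannot be told apart.

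Few genes were called in either line by the quasi-likelihood test, and DESeq2 called 155 and 525 at the same thresholds. The KO effect had 7 called genes, 0.0537% of those tested. Tuba3a, a testis-type alpha-tubulin, and Bnip3, a mitophagy receptor, were higher, and Eif2s3y, Uty, Ddx3y, Ccnd2 and Wt1 were lower. The full deletion had 8, or 0.0613%. In it Bmp7, a bone morphogenetic protein, Bhlhe40, a transcriptional repressor, Fabp3, a fatty acid binding protein, Irak3, a brake on Toll-like receptor signals, and Hspb8, a small heat shock protein, were higher, and Hmga1, Ddx3y and Uty were lower. At an adjusted p under 0.05 with no minimum fold, 65 genes rose in the KO (0.498%) and 28 fell (0.215%), whereas 1042 rose (7.99%) and 1276 fell (9.79%) in the full deletion. Scaled by summed counts in place of TMM, 1658 rose and 353 fell there, and the median effect over all genes was 0.32 in place of 0.04. Directions of the full deletion are therefore relative to the median gene. Without WT_2 b, which entered the shared estimate of the spread, 6.08% of 13096 genes rose and 5.76% fell in the KO, and 15.4% rose and 17.7% fell in the full deletion.

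The effects of the 2 lines were weakly related across genes. Pearson's r over the 13040 genes was 0.26 and Spearman's rho 0.24, and 57.5% of genes had the same sign in both. Single samples gave r between 0.148 and 0.256 across the lines, whereas KO a and KO b, each against the WT of its letter, gave 0.479, and pairs of full-deletion samples, each against the WT_2 sample of its letter, gave 0.549 to 0.643. Each line was thus closer to itself than to the other, with r across genes that are not independent. Of the 1042 genes that rose in the full deletion, 801 (76.9%) were above 0 in the KO, and of the 1276 that fell, 912 (71.5%) were below 0. In the other direction, 25 of the 28 genes lower in the KO were below 0 in the full deletion, and 37 of the 65 genes higher in the KO (56.9%) were above 0 there. Without WT_2 b, r was 0.34 and 60.5% of genes had the same sign, as did 577 of the 796 genes then higher in the KO (72.5%) and 557 of the 754 lower (73.9%).

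**Figure D1:**
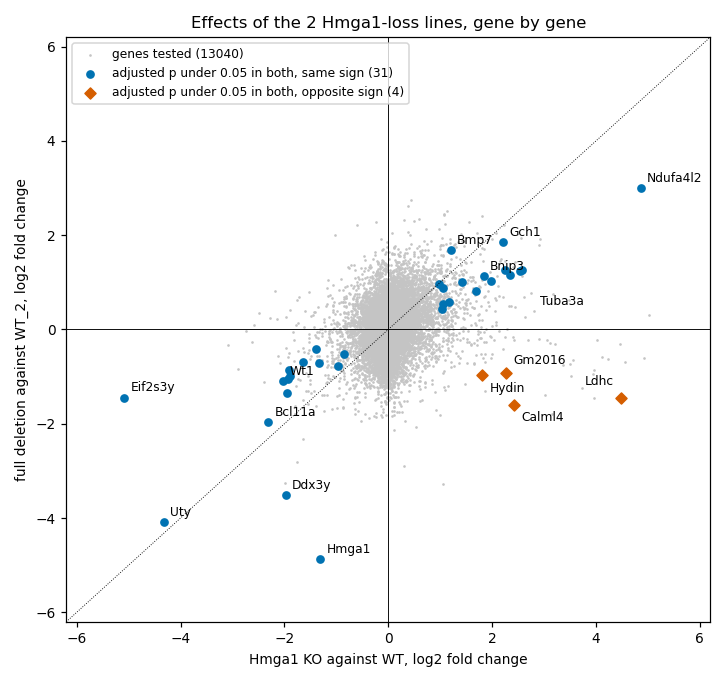
Log2 fold change of each of 13040 genes in the Hmga1 KO against WT (horizontal axis) and in the full deletion against WT_2 (vertical axis), with the diagonal dotted. The 31 genes past the test in both with the same sign (blue) lie in the lower left and upper right, and the 4 with opposite signs (orange diamonds) are all higher in the KO and lower in the full deletion.

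The genes that moved the same way in both lines are described next. At an adjusted p under 0.05 in both effects, 31 genes had the same sign, 0.238% of the genes tested, of which 16 were higher and 15 lower in both. For 28 of the 31 the change was larger in the KO. Its effect rested on KO a and b against WT a and b, and its standard error was larger for all 31. WT c had no KO sample of its letter, so the batch term removed it from this effect. The difference of the effects passed the same threshold for 2 of them, Hmga1 and Eif2s3y. Without WT_2 b, 574 genes (4.38%) had the same sign, and all 31 were among them. The count was 0 in edgeR without WT a or without KO a, where 473 and 458 genes had an unadjusted p under 0.05 in the KO effect. By DESeq2 with all samples it was 121. Since a batch without its WT drops out of the KO comparison, leaving out WT a or KO a left KO b against WT b alone. The loss was not limited to these settings. In edgeR the shared count was 2 without full deletion a, without b and without c. It was 15 without WT_2 a and without WT_2 c, and 32 without WT c. The count rose without WT b or without KO b, which left KO a against WT a alone.

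The 3 Y-linked genes with enough counts fell in both lines, and Uty and Ddx3y were first among the shared genes by the larger p. Uty, a histone demethylase paralog of the X-linked Kdm6a, reached 28.4, 38.0 and 34.2 CPM in the WT samples a, b and c, against 0.982 and 2.81 CPM in KO a and b. In the full-deletion experiment it reached 26.4, 30.8 and 36.9 CPM in WT_2 and 1.28, 2.36 and 1.82 CPM in the deletion. The groups did not overlap in either experiment, and Uty fell by 4.31 ± 0.33 (adjusted p = 0.00203) and by 4.08 ± 0.27 (adjusted p = 0.000364) on the log2 scale. Ddx3y, an RNA helicase, fell by 1.97 ± 0.19 in the KO (adjusted p = 0.00473) and had a log2 change of −3.51 ± 0.17 in the full deletion (adjusted p = 3.77e-05). Eif2s3y, a translation initiation factor subunit, behaved differently in the 2 lines. It reached 43.9, 56.6 and 68.2 CPM in WT but 1.08 and 2.03 CPM in the KO, which is 2.48% and 3.59% of the WT of the same letter. In the full deletion it held 31.6, 30.0 and 32.3 CPM against 66.6, 117.5 and 71.4 CPM in WT_2. Eif2s3y fell by 5.09 ± 0.33 and 1.44 ± 0.21, and the difference of 3.64 ± 0.38 passed the test (adjusted p = 0.0282). Summed over the list, the Y-linked genes were at 78.9 to 114.4 CPM in WT, 3.67 to 7.78 CPM in KO, 105.6 to 162.3 CPM in WT_2 and 33.5 to 35.2 CPM in the full deletion. The 7 X-linked partners of Y-linked genes had medians of −0.19 and −0.31, with 0 and 1 lower, next to medians of −0.01 and 0.04 over all genes. At an unadjusted p under 0.05, and by DESeq2, 0 and 6 of the 7 were lower, and without WT_2 b 1 and 6. Loss of part of the Y chromosome in a clone and a response to the loss of Hmga1 cannot be told apart with 1 line per genotype.

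Among the genes higher in both, 3 with known roles in hypoxia or lactate transport are given here. Bnip3, which is induced by hypoxia, reached 4.37, 11.8 and 4.64 CPM in the WT samples a, b and c, against 18.9 and 35.0 CPM in KO a and b. WT_2 had 8.70, 9.51 and 8.05 CPM, and the full deletion 18.7, 19.7 and 18.9 CPM. All KO samples were above all WT samples, and likewise in the other experiment. The rise was 1.84 ± 0.17 in the KO (adjusted p = 0.00473), next to 1.13 ± 0.14 in the full deletion (adjusted p = 0.0108), and the difference did not pass (−0.71 ± 0.22, adjusted p = 0.248). Ndufa4l2, a mitochondrial protein induced by hypoxia, rested on 2, 1 and 5 counts in WT and 90 and 18 in the KO, and on 8, 1 and 2 counts in WT_2 and 34, 30 and 30 in the full deletion. It rose by 4.86 ± 0.74 and 3.01 ± 0.52 (adjusted p = 0.0292 and 0.0187). Slc16a3, the lactate exporter, rose by 1.18 ± 0.20 and 0.59 ± 0.17 (adjusted p = 0.0401 and 0.0424). Slc16a3 and Ndufa4l2 lie outside the first 10 shared genes, and they and the other shared genes past the first 10 were named after their values were seen.
The promoter of Bnip3 is shown because its E-box, in capitals, contains the ACGTG core that hypoxia-inducible factors bind. It is the RefSeq window of 250 bases before to 50 after the gene start, chr7:138909457-138909756 on the − strand of GRCm38.p6.
Bnip3 promoter: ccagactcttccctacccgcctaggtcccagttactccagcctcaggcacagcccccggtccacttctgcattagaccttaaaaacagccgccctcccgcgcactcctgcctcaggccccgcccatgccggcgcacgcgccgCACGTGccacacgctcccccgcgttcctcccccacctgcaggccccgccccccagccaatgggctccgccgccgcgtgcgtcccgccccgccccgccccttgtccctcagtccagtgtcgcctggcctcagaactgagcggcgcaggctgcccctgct
The letters CACGTG stood 108 bases before the start, and they hold ACGTG on both strands. ACGTG, searched on both strands, was in 9 of the 21 shared genes with a promoter window (42.9%), in 26.2% of 10298 tested genes with a window and in 19.7% of all 27025 windows. CACGTG, which contains it, was in 4 of the 21 and in 10.5% of the tested genes.

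Other genes were lower or higher in both lines. Wt1, a zinc finger factor of kidney and gonad, reached 7.69, 7.28 and 4.79 CPM in WT and 1.86 and 1.82 CPM in the KO. It reached 5.78, 6.75 and 5.85 CPM in WT_2 and 2.87, 2.86 and 2.82 CPM in the full deletion, again with no overlap. The log2 changes were −2.02 ± 0.20 (adjusted p = 0.00531) and −1.10 ± 0.16 (adjusted p = 0.0126). Bcl11a, a zinc finger repressor known from globin switching, fell by 2.31 ± 0.32 and 1.96 ± 0.28 (adjusted p = 0.0224 and 0.0126). Ccnd2, a D-type cyclin, fell by 1.39 ± 0.13 in the KO and by 0.41 ± 0.11 in the full deletion (adjusted p = 0.00473 and 0.0347). Its difference of 0.98 ± 0.17 did not pass (adjusted p = 0.0696). Cdh2 (N-cadherin), the ligand Efnb2, the homeobox gene En1, the sodium channel Scn3a and the potassium channel Kcnj3 also fell in both, by 1.34 (Scn3a) to 1.93 (En1) in the KO and by 0.70 (Efnb2) to 1.05 (En1) in the full deletion. Among the genes higher in both, Bmp7 reached 3.41, 2.35 and 1.92 CPM in WT, 7.68 and 5.68 CPM in the KO, 3.67, 3.53 and 3.69 CPM in WT_2 and 11.99, 11.8 and 11.1 CPM in the full deletion. Its rise was 1.21 ± 0.18 in the KO (adjusted p = 0.0242), next to 1.68 ± 0.14 in the full deletion (adjusted p = 0.00235). Gch1, which starts tetrahydrobiopterin synthesis, rose by 2.21 ± 0.32 and 1.86 ± 0.26 (adjusted p = 0.0242 and 0.0117), and Loxl2, a lysyl oxidase, by 0.98 ± 0.16 and 0.97 ± 0.13 (adjusted p = 0.0338 and 0.0117). For Loxl2 the effects of both lines were nearly equal, with a difference of −0.01 ± 0.21.

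**Figure D2:**
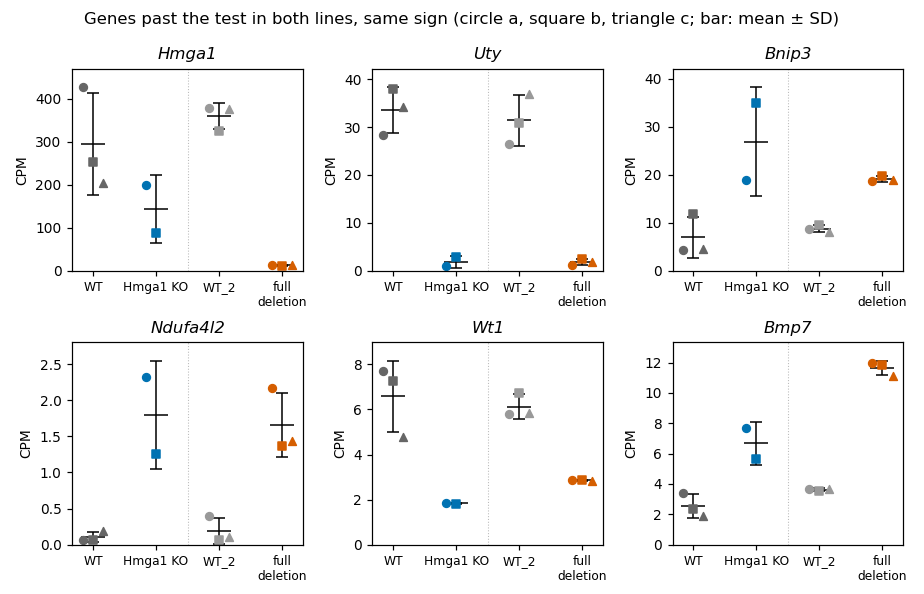
CPM per sample (vertical axes from 0, 1 scale per gene) of 6 genes with the same sign in both lines, for WT, Hmga1 KO, WT_2 and full deletion, with letters as symbols and mean ± SD as bars. Hmga1, Uty and Wt1 are lower and Bnip3, Ndufa4l2 and Bmp7 higher in each Hmga1-loss group than in every one of its own WT samples.

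Opposite effects were rarer and ran in 1 direction. Only 4 genes, 0.0307% of those tested, passed in both effects with opposite signs: Ldhc, Calml4, Hydin and Gm2016 were each higher in the KO and lower in the full deletion. Ldhc encodes the sperm-specific lactate dehydrogenase subunit, Calml4 a calmodulin-like protein of brush borders, and Hydin a protein of the central pair of motile cilia. Gm2016 is a predicted gene at chr12:89112520-89116383 (NCBIM37) whose near-identical copies can share its reads, so its value is uncertain. The other 3 lie on other chromosomes, Ldhc at chr7:54116573-54133512, Calml4 at chr9:62705911-62723725 and Hydin at chr8:112790877-113134153. Their promoter windows (GRCm38.p6, all on the + strand) are shown with each run of at least 5 bases that are A or T, the kind of DNA an AT-hook can hold, in capitals. The windows are chr7:46861013-46861312 for Ldhc, the first of 2 listed, chr9:62857854-62858153 for Calml4 and chr8:110266727-110267026 for Hydin.
Ldhc promoter: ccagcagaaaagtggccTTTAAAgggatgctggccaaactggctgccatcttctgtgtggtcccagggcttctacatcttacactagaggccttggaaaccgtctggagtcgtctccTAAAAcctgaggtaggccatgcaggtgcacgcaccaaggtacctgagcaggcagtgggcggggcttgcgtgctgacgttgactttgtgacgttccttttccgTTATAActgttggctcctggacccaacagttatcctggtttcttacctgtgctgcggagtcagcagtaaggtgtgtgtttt
Calml4 promoter: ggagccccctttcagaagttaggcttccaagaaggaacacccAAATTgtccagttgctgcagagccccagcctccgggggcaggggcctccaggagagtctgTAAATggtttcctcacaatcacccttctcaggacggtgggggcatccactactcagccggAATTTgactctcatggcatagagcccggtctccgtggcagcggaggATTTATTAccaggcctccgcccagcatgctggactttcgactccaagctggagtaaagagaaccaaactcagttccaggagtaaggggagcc
Hydin promoter: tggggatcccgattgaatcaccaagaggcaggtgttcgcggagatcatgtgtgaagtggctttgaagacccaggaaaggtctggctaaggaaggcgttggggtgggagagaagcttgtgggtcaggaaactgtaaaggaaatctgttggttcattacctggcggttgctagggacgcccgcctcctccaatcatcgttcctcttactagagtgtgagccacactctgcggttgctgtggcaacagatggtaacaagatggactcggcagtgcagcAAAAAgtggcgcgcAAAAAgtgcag
The 3 windows held 3, 4 and 2 such runs, next to a median of 2 over the tested genes, 74.6% of which had at least 1. Over all 27025 windows the median was 3, and 84.9% had at least 1. Their A+T content was 46.7%, 43.3% and 46.7%, against a median of 38.7% over the tested genes and 47.3% over all windows. None of them held ACGTG.

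Ldhc rested on 2, 0 and 2 counts in the WT samples a, b and c (0.0583, 0 and 0.0766 CPM) and 36 and 18 counts in KO a and b (0.930 and 1.26 CPM). In WT_2 it had 38, 22 and 38 counts (1.91, 1.41 and 1.95 CPM), and in the full deletion 9, 17 and 12 (0.574, 0.772 and 0.574 CPM). No groups overlapped within an experiment. The log2 change was 4.49 ± 0.64 in the KO (adjusted p = 0.0238), next to −1.45 ± 0.33 in the full deletion (adjusted p = 0.0277), with a difference of −5.93 ± 0.72 (adjusted p = 0.0346). Calml4 reached 1.28, 2.997 and 3.03 CPM in WT, 9.18 and 11.8 CPM in the KO, 12.8, 27.6 and 14.3 CPM in WT_2 and 5.17, 6.72 and 6.07 CPM in the full deletion. It rose by 2.42 ± 0.41 in the KO (adjusted p = 0.0401) and fell by 1.59 ± 0.31 in the full deletion (adjusted p = 0.0222), and the effects differed by −4.01 ± 0.51 (adjusted p = 0.0367). Hydin rose by 1.81 ± 0.25 in the KO (adjusted p = 0.0224) and fell by 0.96 ± 0.20 in the full deletion (adjusted p = 0.0237), with a difference of −2.775 ± 0.32 (adjusted p = 0.0346). Gm2016 rose by 2.27 ± 0.32 and fell by 0.93 ± 0.26 (adjusted p = 0.0224 and 0.0405).

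The wild types of the 2 experiments stood apart at these loci. For Ldhc, Calml4 and Hydin the order of the levels was WT, full deletion, KO and WT_2, from low to high means. Their WT_2 samples were all above their WT samples, and all full-deletion samples were below all KO samples. Hydin, for instance, was at 7.20 ± 1.08 CPM in WT (SD, n = 3), 15.6 ± 1.38 CPM in the full deletion, 25.6 ± 7.84 CPM in the KO and 30.4 ± 8.98 CPM in WT_2. Of all genes tested, 22.4% had every WT_2 sample above every WT sample, and 3703 of 13040 had every full-deletion sample below every KO sample. The opposite signs were therefore read against WT levels that themselves differed, and what set those apart was not tested. Without WT_2 b, 107 genes (0.817%) had opposite signs, the 4 among them, with 66 higher and 41 lower in the KO. The count was 0 in edgeR without WT a, without KO a or without any 1 of the full-deletion samples, where 1225 to 1322 genes had an unadjusted p under 0.05 in the KO effect. By DESeq2 with all samples it was 21.

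**Figure D3:**
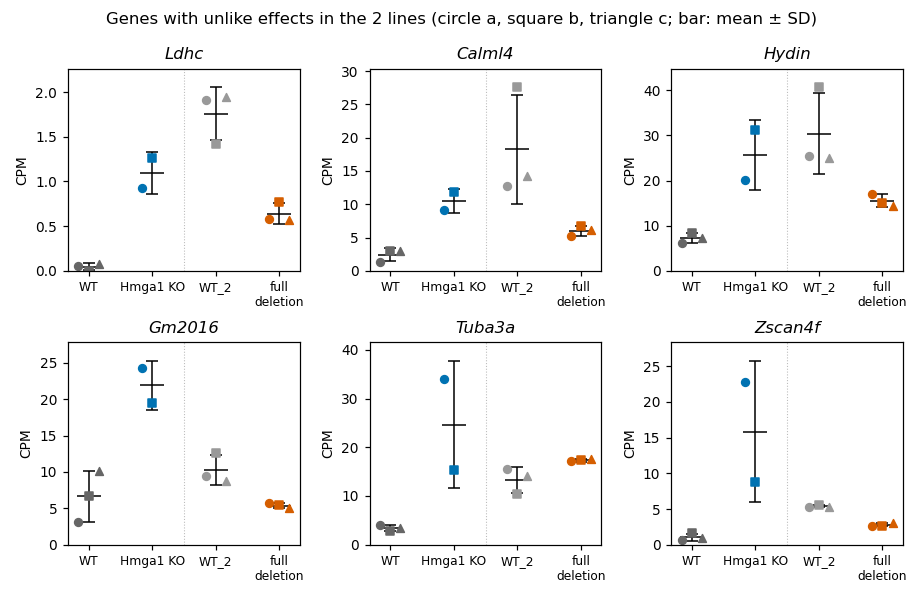
CPM per sample (vertical axes from 0, 1 scale per gene) of the 4 genes with opposite signs and of Tuba3a and Zscan4f, which passed the test of the difference, with letters as symbols and mean ± SD as bars. In Ldhc, Calml4 and Hydin the WT_2 samples lie above all WT samples, and in Zscan4f the 2 KO samples lie above the 9 others.

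The difference of the 2 effects was tested directly. At an adjusted p under 0.05 and at least 2-fold, 32 genes differed, 0.245% of those tested. Of these, 30 had the lower effect in the full deletion, and Eif2s3y and Dtna, a dystrobrevin, had the higher one. With no minimum fold the shares were 0.0153% higher and 0.238% lower. Without WT_2 b they were 5.3% and 7.89%, and 31 of the 32 genes remained among the 339 that then passed with 2-fold. In 26 of the 32 genes every WT_2 sample was above every WT sample (22.4% of all genes), with a median log2 difference of 1.60 (on CPM plus 0.1). Every full-deletion sample was below every KO sample in 20 of the 32 and above in 4, and the groups overlapped in 8. Their median difference was −0.69. Over all 13040 genes, 3703 were below, 3380 above and 5957 overlapped, with a median of −0.03. These levels come from the same samples as the test and are a description.

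Genes of the 2-cell-like state, a rare and transient state of ESC cultures marked by Zscan4 genes, had the largest median difference of the lists with at least 3 members tested. Of 18 listed genes 8 were tested, and 6 rose in the KO, where the list had a median of 3.96. None rose in the full deletion, where the list had a median of −0.69 and 1 member, Eif1a, fell, and 4 differed between the effects. Of all genes, 0.498% rose in the KO, 9.79% fell in the full deletion and 0.238% had the lower effect there. The filter averaged WT and KO samples together, so members with few WT counts could be tested because of their KO counts. Tcstv3, for instance, rested on 3, 1 and 1 counts in WT and 81 and 11 in the KO. The list's count and median in the KO rest in part on this filter. Zscan4f reached 0.641, 1.57 and 0.920 CPM in WT, 22.9 and 8.83 CPM in the KO, 5.33, 5.59 and 5.33 CPM in WT_2 and 2.68, 2.63 and 3.06 CPM in the full deletion. Its log2 changes were 3.95 ± 0.50 (adjusted p = 0.0186) and −0.95 ± 0.36 (adjusted p = 0.0838), and the difference was −4.905 ± 0.61 (adjusted p = 0.0367). Zscan4c (−4.82), Tcstv3 (−4.855) and Gm4340 (−4.24) gave like differences. Zscan4f and Zscan4c are near-identical copies on chromosome 7, so their reads can be exchanged and they do not count as separate observations. KO a was higher than KO b for each, and the list's median was 4.72 in KO a and 2.29 in KO b. Of the 8 members, 7 were at an unadjusted p under 0.05 in the KO, as were 1580 of all 13040 genes in either direction. Without WT_2 b 7 members were tested, of which 6 rose in the KO, 2 fell in the full deletion and all 7 differed between the effects. The shares over all genes were then 6.08%, 17.7% and 7.89%.

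Germline genes were next in the size of the median difference among the lists named here (−0.996). Of 30 listed genes 26 were tested, and 24 were above 0 in the KO (median 1.03) but 13 in the full deletion (median −0.02, or 0.27 with summed counts, where all genes had 0.32). Of these, 4 rose in the KO, namely Ldhc, Tuba3a, its near-identical copy Tuba3b and Sohlh2, a factor of early germ cells. Ldhc, with 2, 0 and 2 counts in WT, reached the filter through its KO counts of 36 and 18. In the full deletion 1 rose, Mael, and 7 fell, among them Sycp1 (−1.53 ± 0.25, adjusted p = 0.0169), a rod protein of the synaptonemal complex, and Hormad1 (−0.88 ± 0.21, adjusted p = 0.0305), which acts on meiotic chromosome axes. Mael, a factor of piRNA silencing, was the exception with nearly equal values, 1.04 ± 0.20 in the KO (adjusted p = 0.0621), next to 1.05 ± 0.17 in the full deletion (adjusted p = 0.0165). Without WT_2 b, 20 of the 27 then tested rose in the KO, 6 rose and 7 fell in the full deletion, and 14 differed between the effects. Of all genes, 0.498% rose in the KO, and 7.99% rose and 9.79% fell in the full deletion. Without WT_2 b these shares were 6.08%, 15.4% and 17.7%, with 7.89% lower for the difference. Summed over the list, the germline genes were at 300.5 to 378 CPM in WT and 604 to 854 CPM in WT_2, whereas the KO (538 to 573 CPM) and the full deletion (539 to 561 CPM) overlapped. In summed level the wild types of the experiments thus did not overlap, while the Hmga1-loss lines did. The wild types were apart in other lists as well. Core pluripotency genes were at 8092 to 9124 CPM in WT and 10590 to 14710 CPM in WT_2. Nucleolar ribosome biogenesis genes were at 17250 to 24950 CPM in WT and 31190 to 66700 CPM in WT_2. Members of high level weigh most in such a sum.

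Tuba3a reached 4.02, 2.85 and 3.45 CPM in WT, 33.9 and 15.4 CPM in the KO, 15.4, 10.3 and 14.1 CPM in WT_2 and 17.1, 17.3 and 17.7 CPM in the full deletion. It rose by 2.81 ± 0.24 in the KO (adjusted p = 0.00352) and was 0.38 ± 0.17 higher in the full deletion (adjusted p = 0.132), with a difference of −2.42 ± 0.29 (adjusted p = 0.0346). Reads of Tuba3a and Tuba3b can be exchanged. Among the germline genes with a promoter window, 12 of 23 (52.2%) held CACGTG, against 10.5% of the tested genes.

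Imprinted genes, expressed from 1 parental copy, moved in small numbers. Of the 36 tested outside the Dlk1-Meg3 locus 2 fell in the KO, and 3 rose and 5 fell in the full deletion, with medians of −0.12 and −0.03 (0.28 in the full deletion with summed counts). The counts in the full deletion are near the shares of all genes there (7.99% and 9.79%). In the KO 0.215% of all genes fell. Without WT_2 b, 4 rose and 7 fell in the KO, and 7 and 8 in the full deletion. The shares over all genes were then 6.08% and 5.76% in the KO, and 15.4% and 17.7% in the full deletion. Peg13, a non-coding RNA expressed from the paternal copy, was the 1 member whose effects differed between the effects. It rested on 75, 25 and 24 counts in WT, 174 and 54 in the KO, 26, 16 and 34 in WT_2 and 0, 3 and 5 in the full deletion. It was 1.06 ± 0.40 higher in the KO (adjusted p = 0.318) and fell by 3.29 ± 0.53 in the full deletion (adjusted p = 0.0167), a difference of −4.35 ± 0.67 (adjusted p = 0.0484).

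Glycolysis and hypoxia-response genes had medians above 0 in both lines. Of 40 listed genes 37 were tested, and 31 had the same sign in both effects. The medians were 0.49 in the KO, next to 0.51 in the full deletion. In the KO 5 rose and 0 fell (21 and 0 at an unadjusted p under 0.05, and 11 and 0 by DESeq2), and in the full deletion 16 rose and 2 fell, Ldhc and Kdm3a, against background shares of 0.498% and 7.99% for genes that rose. Of all 13040 genes, 1580 were at an unadjusted p under 0.05 in the KO, in either direction. Bnip3 and Slc16a3 rose in both. Aldoc and Pfkp, both glycolytic enzymes, and Ldhc passed as higher in the KO and not in the full deletion. Pfkp reached 116.2, 221 and 119.0 CPM in WT and 313 and 436 CPM in the KO, but 305, 300.2 and 310.0 CPM in WT_2 and 307, 320 and 333 CPM in the full deletion. Its effects differed by −1.14 ± 0.17 (adjusted p = 0.0484), and its WT_2 samples were again above all WT samples. In the full deletion the genes that rose included Ldhb (1.48 ± 0.21, adjusted p = 0.0117), the glucose transporters Slc2a1 and Slc2a3, the stress gene Ddit4 (1.37 ± 0.24, adjusted p = 0.0197) and the oxygen sensors Egln1 and Egln3. Ddit4 and Egln3 had like values in the KO, 1.41 ± 0.27 and 0.94 ± 0.26, with adjusted p = 0.0620 and 0.173. Without WT_2 b, 23 rose in the KO, next to 23 in the full deletion, with 0 and 2 lower. The list's median was 0.47 and 0.51 in KO a and b and 0.48 to 0.54 in the 3 full-deletion samples, above 0 in each of the 5. The letters ACGTG were in 19 of 34 promoters of the list (55.9%), in 16 of 23 of the germline list (69.6%) and in 26.2% of the tested genes.

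**Figure D4:**
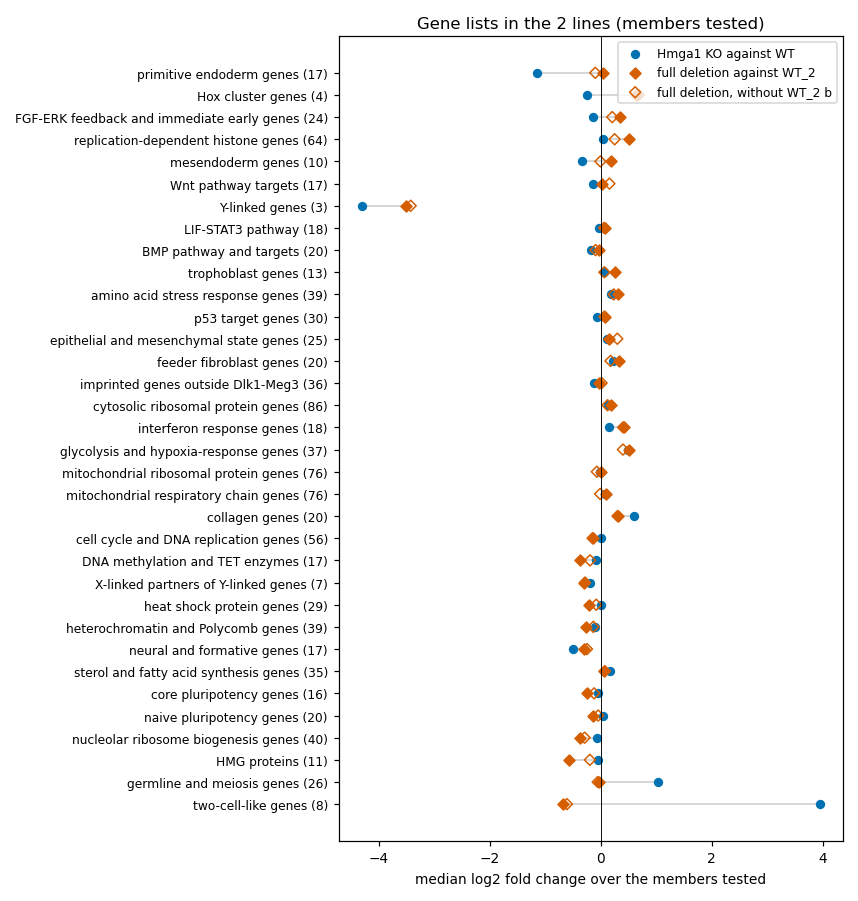
Median log2 fold change over the tested members of each gene list (number in brackets) in the Hmga1 KO (blue) and in the full deletion with all WT_2 samples (filled orange) and without WT_2 b (open orange), ordered by the median difference. Glycolysis genes lie near 0.5 in both lines, the 3 Y-linked genes are below −3 in both, and the 2-cell-like and germline genes are above 1 in the KO, with medians of −0.69 and −0.02 in the full deletion (−0.38 and 0.27 with summed counts).

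Markers of other cell types were examined as lists. Over all genes 0.498% rose and 0.215% fell in the KO, and 7.99% and 9.79% in the full deletion. Without WT_2 b these shares were 6.08% and 5.76%, and 15.4% and 17.7%. At an unadjusted p under 0.05 in the KO there were 1580 of all 13040 genes, in either direction. Primitive endoderm genes had a median of −1.16 in the KO, next to 0.05 in the full deletion over 17 members, and 0 passed in the KO (1 higher and 10 lower at an unadjusted p under 0.05 in edgeR, and 1 and 5 by DESeq2). Without WT_2 b, 1 was higher and 10 lower in the KO, the full deletion had 1 higher and 2 lower, and 2 had the higher effect in the full deletion. The samples differed, with a median of −1.95 in KO a and −0.17 in KO b. Dab2, an endocytic adaptor of this lineage, reached 46.6, 15.1 and 27.8 CPM in WT and 3.15 and 11.4 CPM in the KO, against 2.19 to 4.58 CPM in WT_2 and 5.35 to 7.31 CPM in the full deletion. Summed, the list was at 1620 to 1940 CPM in WT, 1037 to 1633 CPM in KO, 947 to 1066 CPM in WT_2 and 901 to 905 CPM in the full deletion. Neural and formative genes had medians below 0 in both lines (−0.50 and −0.31), with the same sign in 15 of 17 members. In the KO 1 fell, Cdh2, and in the full deletion 6 fell, among them Pax8 (−1.945 ± 0.24, adjusted p = 0.0108) and Dnmt3b (−0.69 ± 0.10, adjusted p = 0.0131). Without WT_2 b these counts were 8 and 7, against background shares of 5.76% and 17.7%. Feeder fibroblast genes had medians of 0.22 and 0.33 over 20 members, with 0 higher and 1 lower in the KO and 4 higher and 1 lower in the full deletion. Without WT_2 b these were 5 and 3, and 5 and 1. Their summed level was 663 to 854 CPM in WT, 801 to 812 CPM in KO, 840 to 983.5 CPM in WT_2 and 1070 to 1335 CPM in the full deletion. The part of feeder cells in the genes that rose in the full deletion was not tested.

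Pluripotency genes were examined next. Their counts stand beside shares over all genes of 7.99% higher and 9.79% lower in the full deletion. Without WT_2 b these shares were 15.4% and 17.7%, and 6.08% and 5.76% in the KO. At an unadjusted p under 0.05 in the KO there were 1580 of all 13040 genes, in either direction. Of 16 core and 20 naive genes 0 passed in the KO in edgeR (0 and 6 at an unadjusted p under 0.05, and 0 and 2 by DESeq2), with medians of −0.06 and 0.04. In the full deletion the medians were −0.25 and −0.14, with 1 higher and 5 lower among the core genes and 0 higher and 5 lower among the naive ones. With summed counts these medians were 0.05 and 0.17, below the 0.32 of all genes. Without WT_2 b, 2 core genes were higher and 2 lower in the KO and 6 naive genes higher and 2 lower, and in the full deletion 3 and 7 core and 4 and 7 naive genes were. Hmga2, the relative of Hmga1, was at 11.8 to 21.9 CPM in WT, 12.8 and 17.4 CPM in the KO, 13.8 to 18.8 CPM in WT_2 and 21.7 to 24.4 CPM in the full deletion. It passed in neither line (−0.12 ± 0.18, adjusted p = 0.925, and 0.45 ± 0.15, adjusted p = 0.0600).

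The remaining lists had at most 1 member higher and 1 lower in the KO with all samples, and more without WT_2 b. The shares over all genes in the full deletion, 7.99% higher and 9.79% lower (15.4% and 17.7% without WT_2 b), are the background to the counts that follow. Nucleolar ribosome biogenesis genes had medians of −0.07 in the KO, next to −0.38 in the full deletion, where 16 of 40 fell and none rose. In the KO 0 of the 40 passed in edgeR, also 0 at an unadjusted p under 0.05 and by DESeq2. Nip7 fell by 0.79 and Rrp12 by 1.09 in the full deletion. Without WT_2 b the median was −0.29, with 27 lower, and 4 were lower in the KO. The summed level was 31190 to 66700 CPM in WT_2, its maximum in WT_2 b, and 23640 to 24250 CPM in the full deletion. Amino acid stress response genes, targets of Atf4, had medians of 0.18 and 0.31 over 39 members, with 0 called in the KO in edgeR (9 higher at an unadjusted p under 0.05, and 5 by DESeq2) and 8 higher in the full deletion. Cebpb (1.39) and Chac1 (1.31) were among these 8. In the KO 1580 of all 13040 genes were under that unadjusted p, in either direction. Without WT_2 b 15 were higher in the KO, and 20 higher and 1 lower in the full deletion. Replication-dependent histone genes had medians of 0.05 and 0.50 over 64 members, with 3 higher and 3 lower in the full deletion. Without WT_2 b the median was 0.25, with 40 higher and 6 lower in the full deletion and 24 and 6 for the difference. Interferon response genes had medians of 0.14 and 0.42 over 18 members, with 3 higher and 2 lower in the full deletion, and 7 and 2 without WT_2 b, when 4 were higher in the KO. Further lists were BMP, FGF-ERK, Wnt, LIF-STAT3, sterol, p53, heat shock, cell cycle, DNA methylation, heterochromatin with Polycomb, trophoblast, mesendoderm, ribosomal and mitochondrial genes. These lists had medians between −0.34 and 0.17 in the KO and between −0.38 and 0.35 in the full deletion. Without WT_2 b the largest counts of these lists in the KO were 9 of 35 sterol genes higher and 9 of 56 cell cycle genes lower. In the FGF-ERK, the Wnt and the heterochromatin and Polycomb list, 6 genes each were lower. Over all genes 6.08% were then higher and 5.76% lower in the KO. In the full deletion without WT_2 b, 24 cell cycle genes were lower and 5 higher. So were 21 and 4 of 76 mitochondrial ribosomal, 15 and 1 of 39 heterochromatin and Polycomb, and 12 and 2 of 29 heat shock genes. Of 86 cytosolic ribosomal genes 15 were lower and 27 higher.

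The last comparison concerned the base composition of the genes, since Hmga1 binds A/T-rich DNA. Of the genes tested, 11747 (90.1%) had a position in NCBIM37 and were split into 5 equal classes by the A+T percent of the whole gene. In the full deletion the median effect went from 0.27 in the class with the least A+T to 0.17, 0.05, −0.07 and −0.20 in the class with the most. In the KO the class medians were −0.00058, 0.05, 0.02, −0.02 and −0.05. The correlation across genes with A+T percent was −0.33 in the full deletion and −0.09 in the KO. All 3 full-deletion samples showed the trend (r of −0.31 to −0.34), and without WT_2 b it was −0.29. WT samples differed among themselves in the same property. WT a minus WT b had r of −0.41 with A+T percent, WT_2 b minus the other WT_2 samples 0.25 and WT_2 a minus the others −0.25. The value of −0.33 was larger in size than those between WT_2 samples and smaller than that of WT a minus WT b, and the part of library differences in it was not tested. The deletion effect also went with other gene properties. Its medians were 0.32, 0.23, 0.09, −0.07 and −0.25 in 5 classes from low to high mean level, and 0.16, 0.08, 0.05, −0.04 and −0.04 in 5 classes from short to long genes. These properties were not separated from A+T percent.

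**Figure D5:**
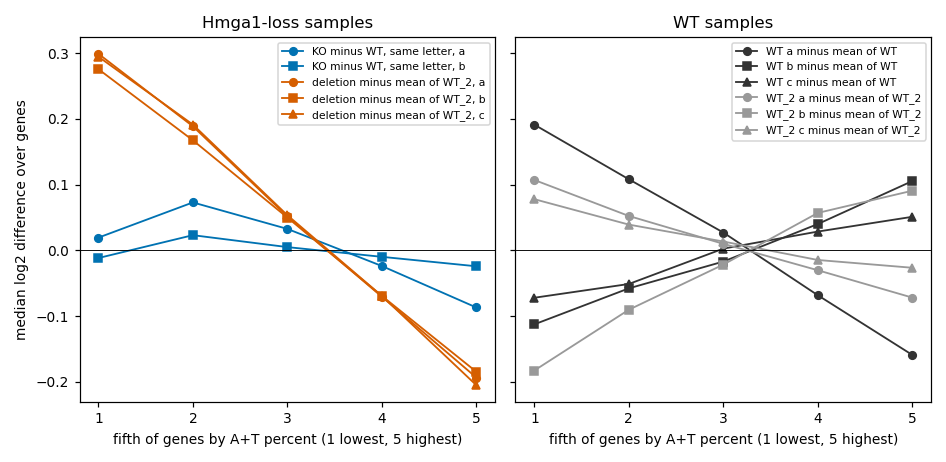
Median log2 difference over genes (vertical axis) in 5 classes of genes by A+T percent of the gene (horizontal axis), for the Hmga1-loss samples against their WT (left) and for each WT sample against the mean of its own group (right). The full-deletion lines fall from 0.30 to −0.21 at most, and the line of WT a falls from 0.19 to −0.16.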

How the data were processed

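The deposited files hold raw counts per gene of 15 ESC samples. Per the labels and the methods, RNA was depleted of ribosomal RNA and sequenced with a strand-specific kit. The authors trimmed 3 bases, used QuasR with Bowtie against mm9, assigned each multi-mapping read to 1 of its places at random and counted those on the strand of each UCSC known gene. bcl2fastq 2.17 is in the submitters' processing notes.

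Here the tables were joined, genes averaging 10 or more counts in each experiment were kept, and TMM and the quasi-likelihood test of edgeR 4.0.16 (R 4.3.3) were applied to 11 samples in 1 fit with 5 residual degrees of freedom. The average took WT and Hmga1-loss samples together. A gene with few WT counts could thus enter through its loss samples, as Ldhc, Tcstv3 and Ndufa4l2 did in the KO experiment. Terms were the batch letters of the KO experiment, 1 level for the other experiment and both effects. P-values were adjusted by Benjamini-Hochberg over all 13040 genes. The SE of an effect was worked back from the test, as the size of the log2 change over the square root of its F statistic. Calls required an adjusted p below 0.01 with a log2 change of 1 or more, and shared, opposite and list counts used 0.05 with no fold. No share over all genes was worked out for list counts by DESeq2. The depth was 13465399 to 34952136 counts per sample, and this is the limit for genes of few counts.

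The letters pair samples in the KO experiment, as the methods state (WT a minus b against KO a minus b, r = 0.466). In the other experiment same-letter deviations had r between −0.058 and 0.069, so no pairing was used. Named were Hmga1, Calml4 and Ldhc, called genes (up to 10 per effect, 12 for the difference), the first 10 shared and opposite genes by the larger p, and up to 4 members of each list by the p of the difference. Other genes named were chosen after their values were seen. The members and lists were chosen with earlier results of these data known. The fit was tested on simulated counts. Promoter windows are from RefSeq (GRCm38.p6), and 10298 of the genes tested had one.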

Additional observations from a re-analysis of the deposited data

Results flagged for a closer look

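At an adjusted p under 0.05, the effects differed by the test of the difference itself (edgeR quasi-likelihood test) for 13 genes named by the rule above. Dtna, named outside that rule, differed as well, and only Hmga1 was also under 0.01. The deletion effect minus the KO effect, on the log2 scale, was −3.56 for Hmga1, −4.01 for Calml4, −5.93 for Ldhc, 3.64 for Eif2s3y and −2.42 for Tuba3a. It was −2.775 for Hydin and −3.20 for Gm2016. Among the 2-cell-like genes it was −4.905 for Zscan4f, −4.855 for Tcstv3, −4.82 for Zscan4c and −4.24 for Gm4340. For Peg13 it was −4.35, and for Pfkp −1.14.

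The 4 add-back samples, KO cells in which Hmga1 or Hmga2 was expressed again, entered no comparison above. All 13 genes examined in them had an adjusted p under 0.05 in the KO effect (edgeR quasi-likelihood test), and the add-back lines were made from the KO line. How many of all genes lie outside WT in these samples was not counted. Of the 13 genes, for 5 the add-back levels all lay over every WT sample of the KO experiment. Ldhc had a median of 0.776 CPM in them (0.401 to 0.797 CPM), Calml4 8.90 CPM (5.65 to 11.8 CPM), Hydin 26.9 CPM (24.3 to 39.4 CPM), Tuba3a 20.15 CPM (10.9 to 28.0 CPM) and Zscan4f 9.12 CPM (4.02 to 13.8 CPM). For 4 they lay below every WT sample, Uty (0.0827 to 0.780 CPM), Ddx3y (0.0551 to 1.28 CPM), Eif2s3y (0.138 to 1.205 CPM) and Wt1 (0.936 to 2.41 CPM). The other 4 overlapped WT, Bnip3 (9.18 to 19.5 CPM), Ccnd2 (22.7 to 70.0 CPM), Bmp7 (1.91 to 12.6 CPM) and Gm2016 (7.91 to 22.5 CPM).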

How the results depend on the processing

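In the order KO calls, deletion calls, calls of the difference, shared genes and opposite genes, the counts of 7, 8, 1, 31 and 4 became 155, 525, 111, 121 and 21 with DESeq2, and 86, 593, 32, 18 and 2 at an adjusted p under 0.05 with 2-fold. With all 15 samples the calls were 29, 30 and 11, with no filter on low counts 30, 81 and 5, and with summed counts as the scale 2, 6 and 2 with 14 shared genes. DESeq2 size factors gave 5 deletion calls. A mean count of at least 50 gave 28 deletion calls, 19 shared and 2 opposite genes, and each experiment fitted alone gave 11 KO calls and 11 opposite genes. At an adjusted p under 0.01 in both effects, a setting chosen after seeing the data, 2 shared and 0 opposite genes were left, since the threshold is stricter. The correlation of 0.26 was 0.0242 with no filter. The cause of the other changes was not tested.

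Without the replicate block the counts were 62 KO calls, 16 calls of the difference and 49 shared genes, with r = 0.335. With the replicate block in both experiments they were 3 KO calls, 3 deletion calls and 11 shared genes. That block changed the call of Ldhc, whose KO effect then had an adjusted p of 0.0597 and difference 0.0670. Deletion letters did not pair the samples.

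Leaving out 1 sample moved the KO calls between 0 and 204, the deletion calls between 2 and 262, the difference between 0 and 143, shared genes between 0 and 574, opposite genes between 0 and 107 and r between 0.158 and 0.336. The highest values came without WT_2 b. Without WT b or KO b there were 29 and 30 KO calls. Where 1 batch was left in the KO effect, its samples are assumed to vary like the other groups. The Uty difference ranged from −0.32 to 0.770 and changed sign, to −0.32 without WT a, −0.32 without KO a and −0.0055 without full deletion b. Over 51 named effects, 437 values under other settings kept direction and call, 43 lost the call and 3 gained it. With 1 sample left out these were 341, 208 and 3, and 3 changed sign. Depth limits Ldhc, Ndufa4l2 and Peg13 most, which rest on few counts.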
